A study of Mus musculus with 6 samples.

Results

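Amino acid transporters are the membrane proteins that move amino acids into and out of cells, and the 10 genes described here encode carriers of the Slc1, Slc3, Slc6, Slc7 and Slc38 families that are widely used by growing cells. They are Slc7a1, Slc7a3, Slc7a5, Slc7a11, Slc3a2, Slc6a9, Slc1a4, Slc1a5, Slc38a1 and Slc38a2. Their probes were taken from the array files by matching the RefSeq accession given for each non-control probe to a gene symbol. This gave 15 probes for the 10 genes, of 39429 non-control probes on the array, and the 10 genes were 10 of 14906 genes tested. All 15 probes passed the filter on dim signal. Of the genes, 6 had 1 probe, 3 had 2 and 1 had 3.

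The tissue was the head of the mouse embryo at embryonic day 9.5 (E9.5), cut so that each head kept its first branchial arch, the tissue of the future jaws. The groups were Arid3b-null heads and wild type heads, with 3 samples each, and every sample was the pooled RNA of 4 embryos on 1 one-colour Agilent array. Arid3b encodes a protein that binds AT-rich DNA. The null allele, the strain and whether the pools of a group came from separate litters are not stated in what was used here, and the p-values therefore reflect only how these pools vary.

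Carriers of the Slc7 family fall into a cationic branch, which takes up arginine, lysine and ornithine, and a light chain branch, whose members work bound to a heavy chain; Slc7a5 and Slc7a11 bind the one encoded by Slc3a2. The Slc38 and Slc1 carriers among the 10 move small neutral amino acids such as glutamine, alanine and serine with the help of sodium, and Slc6a9 takes up glycine with sodium and chloride. In the embryo these amino acids feed protein synthesis, nucleotide synthesis and glutathione. Several of the genes are known targets of Atf4, the transcription factor whose translation increases when amino acids are scarce or the protein-folding machinery is strained, and which binds the composite element called the amino acid response element.

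All values below are log2 of the processed signal relative to the 75th percentile of the same array, so 0 stands for that percentile. Each probe has its own brightness, and a value of one gene is not set against that of another. The brightest probe stood for each gene in limma, with Benjamini-Hochberg adjustment over all genes tested, and a gene is said to have risen or fallen where the adjusted p was under 0.05. On each array 67.9% to 70.3% of these spots counted as well above background, and no spot was saturated. The number of arrays, 3 in each group, limits the precision.

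As a check of the labels, Arid3b itself had 1.27, 1.06 and 1.44 in null heads 1, 2 and 3, against 1.98, 2.26 and 3.09 in wild type heads, a 2.28-fold lower signal (log2 difference -1.19 ± 0.29, SE, limma adjusted p = 0.0265). Tested as single probes, the other 2 differed by -1.37 and -2.33 (adjusted p = 0.0224 and 7.59e-04). All 3 probes were lower on every null array than on every wild type array and stayed well above background, and the sources used here do not say whether any of them lies in a deleted stretch. Leaving out any single null array, or the filter on dim probes, ended this call, with an adjusted p of up to 0.0861. The head genes Otx2 and Six3 were well above background on all 6 arrays. Of the 6 head markers, Otx2 rose (log2 difference 0.57), Hesx1 fell (-1.18) and 4 were not called, where 12.3% of all genes were called higher and 11.2% lower.

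Of the 10 transporters, 6 rose in Arid3b-null heads, none fell and 4 did not pass the test. Over all genes tested, 12.3% were called higher and 11.2% lower, 23.5% in either direction. The 6 that rose were both cationic carriers, Slc7a1 and Slc7a3, the glycine carrier Slc6a9, the heavy chain Slc3a2 and its light chains Slc7a5 and Slc7a11. Among them, Slc7a11 passed the filter on dim signal only through the null arrays. With only probes well above background on all 6 arrays, 9 transporters were tested and 5 rose. The 4 that did not pass were the small neutral amino acid carriers Slc1a4, Slc1a5, Slc38a1 and Slc38a2. Rises of at least 2-fold that passed the test numbered 5 among the 10 genes, Slc7a11 included, against 5.17% of all genes. The median log2 difference of the 10 genes was 1.03, with 0.98, 0.83 and 0.98 within slides 1, 2 and 3, each of which held 1 null and 1 wild type array. On every slide the wild type array was at position 1 and the null array at position 2, so position cannot be told apart from genotype. The median over all genes tested was -0.04.

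**Figure D1:**
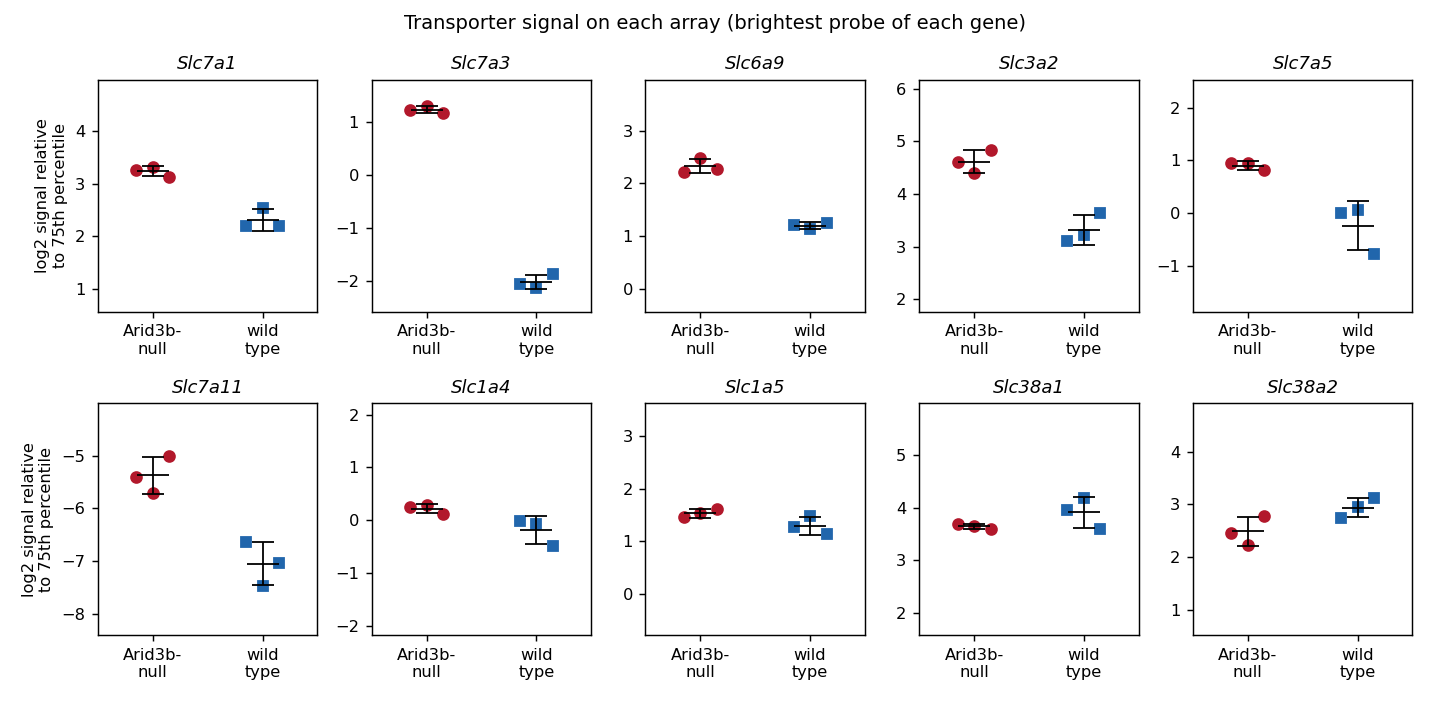
Signal of each transporter's brightest probe on every array, as log2 relative to the array's 75th percentile (vertical axes span the same number of log2 units), with Arid3b-null heads as red circles on the left and wild type heads as blue squares on the right. Horizontal bars are means and whiskers 1 SD over 3 arrays. For Slc7a3 the null arrays sat between 1.18 and 1.31 and the wild type arrays between -2.15 and -1.87, while for Slc1a5, Slc38a1 and Slc38a2 the groups overlapped.

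The difference of Slc7a3 was the largest of the 10 and that of Slc7a1, the other cationic carrier, the smallest of the 6 genes called. Slc7a3, a high-affinity arginine and lysine carrier best known from brain, had 1.24, 1.31 and 1.18 in null heads 1, 2 and 3, against -2.06, -2.15 and -1.87 in wild type heads. Every null array was far above every wild type array, and the arrays of a group lay close together. The signal was 9.65-fold higher in null heads (log2 difference 3.27 ± 0.13, limma adjusted p = 1.68e-04), with differences of 3.30, 3.46 and 3.05 within slides 1, 2 and 3. After normexp background correction the difference was 2.74 and was still called.

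Slc7a1, the general cationic carrier of dividing cells, had 3.26, 3.31 and 3.13 in null heads, against 2.19, 2.54 and 2.19 in wild type heads. The groups lay apart with a smaller gap than that of Slc7a3. Slc7a1 was 1.90-fold higher (log2 difference 0.93 ± 0.15, limma adjusted p = 0.00700). The difference of Slc7a3 exceeded that of Slc7a1 by 2.34 log2 units, and this excess, taken per array, separated the groups completely, with an exact two-sided permutation p of 0.1, the smallest that 3 against 3 arrays allow, and 0.5 after adjustment over the 5 pairs of carriers compared.

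Slc7a3 lies on the X chromosome, and the sources used here do not give the sex of the pooled embryos. Of the 5 sex genes (Xist, Ddx3y, Kdm5d, Eif2s3y and Uty) none was called. Xist, which coats the inactive X chromosome, differed by -0.53 (adjusted p = 0.258), and the Y-linked Ddx3y and Eif2s3y by 0.59 and 0.74 (adjusted p = 0.0634 and 0.0735). Ddx3y and Eif2s3y were higher on every null array than on every wild type array, as were 20.6% of all genes tested. The groups overlapped for Xist and for the other Y-linked genes, Kdm5d and Uty. The part of embryo sex in the result of Slc7a3 was not tested.

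The heavy chain Slc3a2 and the light chains Slc7a5 and Slc7a11 were each called higher, with limits for both light chains given below. Slc3a2, the single-pass glycoprotein that brings light chains to the cell surface, had 4.60, 4.40 and 4.83 in null heads, against 3.10, 3.21 and 3.64 in wild type heads. Null arrays were all above wild type arrays, and null and wild type array 3 were each the highest of their group. Slc3a2 was 2.45-fold higher (log2 difference 1.29 ± 0.19, limma adjusted p = 0.00530), with 1.50, 1.19 and 1.19 within slides.

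Slc7a5, the light chain that exchanges leucine and other large neutral amino acids for glutamine, was read by 2 probes. The brightest had 0.95, 0.95 and 0.81 in null heads, against -0.00, 0.06 and -0.78 in wild type heads. The groups did not overlap, and wild type array 3 was well below the others. The gene was 2.21-fold higher (log2 difference 1.14 ± 0.24, limma adjusted p = 0.0156), but leaving out null array 1, 2 or 3 ended the call (adjusted p = 0.0635, 0.0538 and 0.0521). The dimmer probe gave -1.82, -1.60 and -1.87 in null heads, against -2.71, -3.20 and -3.15 in wild type heads, again without overlap (log2 difference 1.26 ± 0.19).

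Slc7a11, the light chain that imports cystine in exchange for glutamate and so supplies cysteine for glutathione, was the only transporter whose probe missed the mark of well above background on some arrays. It met it on 3 of 3 null arrays and on 1 of 3 wild type arrays. Its values were -5.41, -5.70 and -5.00 in null heads, against -6.63, -7.46 and -7.04 in wild type heads, which corresponded to 1.92% to 3.12% of the 75th percentile in null heads and 0.566% to 1.01% in wild type heads. The groups lay apart and the fit gave a 3.19-fold higher signal (log2 difference 1.67 ± 0.26, limma adjusted p = 0.00615). After normexp correction, in which an offset of 50 larger than each of these signals is added, the difference was 0.11 and was not called (adjusted p = 0.563), so the call rests on how background was treated.

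**Figure D2:**
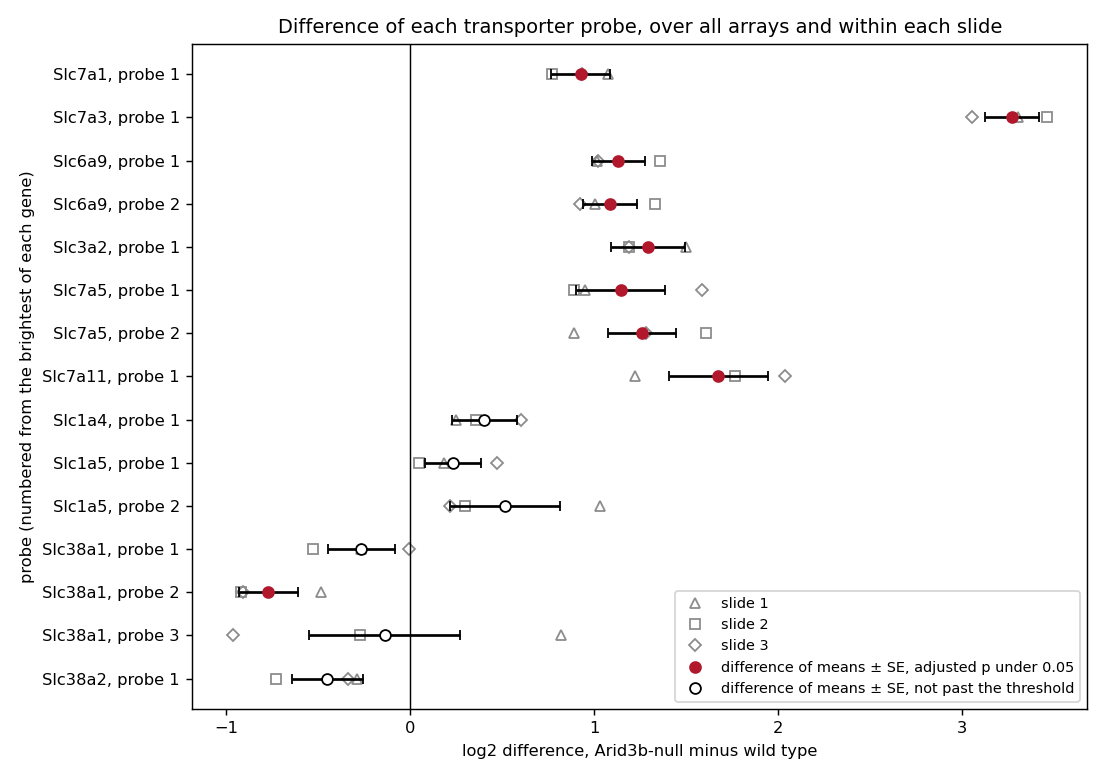
Log2 difference, Arid3b-null minus wild type, of each of the 15 transporter probes (horizontal axis), with the difference of means ± SE from the fit of single probes as circles, filled where the adjusted p was under 0.05, and the difference within each slide as open grey symbols. The 8 filled circles right of 0 belong to Slc7a1, Slc7a3, Slc6a9, Slc3a2, Slc7a5 and Slc7a11, and the 1 filled circle left of 0 is the middle probe of Slc38a1.

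The change of Slc7a5 relative to Slc3a2 was within the spread between arrays. For Slc7a5 the difference was smaller than that of Slc3a2 by 0.15 log2 units (null minus wild type of the log ratio -0.15, exact permutation p = 0.8). The log ratios of the groups overlapped, which does not show that the genes changed alike, since 3 against 3 arrays cannot give a p under 0.1. The ratio of Slc7a11 to Slc3a2 was computed too and is not read here, because 2 of 3 wild type values of Slc7a11 were not well above background.

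Slc6a9, the sodium- and chloride-coupled glycine carrier found on glia and on red cell precursors, was read by 2 probes that gave nearly the same difference. The brightest had 2.22, 2.49 and 2.28 in null heads, against 1.21, 1.13 and 1.26 in wild type heads. The groups lay apart, null array 2 being the highest of all. Slc6a9 was 2.19-fold higher (log2 difference 1.13 ± 0.13, limma adjusted p = 0.00272), and the other probe gave a log2 difference of 1.09 ± 0.15 with groups apart.

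Because Slc6a9 is used by red cell precursors, the erythroid genes are given beside it. Of 9 erythroid marker genes, none rose and 1 fell, Klf1 (log2 difference -1.04), a share of 11.1%, near the 11.2% of all genes called lower. The summed linear signal of the 9 genes overlapped between the groups, at 489 to 1004 times the 75th percentile in null heads and 634 to 857 in wild type heads. The embryonic globins Hbb-y, Hbb-bh1 and Hba-x differed by -0.07, -0.16 and 0.15, which did not pass the test.

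The exchangers of small neutral amino acids in the Slc1 family had smaller differences. Slc1a4, which carries alanine, serine and cysteine, had 0.24, 0.29 and 0.12 in null heads, against -0.01, -0.07 and -0.49 in wild type heads. The groups did not overlap, yet the difference did not pass the test (1.32-fold, log2 difference 0.40 ± 0.17, limma adjusted p = 0.125). Lying apart with the null arrays higher was a property of 7 of the 10 transporters, Slc7a11 included, and of 20.6% of all genes tested. Lying apart with the null arrays lower was one of 0 transporters and 21.8% of genes (42.4% in either direction).

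Slc1a5, the main glutamine exchanger of many proliferating cells, had 1.45, 1.53 and 1.61 in null heads, against 1.27, 1.48 and 1.14 in wild type heads. Wild type array 2 lay within the range of the null arrays. The difference was 0.23 ± 0.14 (limma adjusted p = 0.277), and the second probe also overlapped (0.52 ± 0.30).

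The differences of both Slc38 members had a negative sign and did not pass the test. Slc38a2, a sodium-coupled carrier of glutamine and alanine that adapts to amino acid supply, had 2.46, 2.23 and 2.78 in null heads, against 2.75, 2.96 and 3.12 in wild type heads. Null array 3 was above wild type array 1, so the groups overlapped, although the null array was the lower one on each slide (differences of -0.29, -0.73 and -0.34). Its difference of -0.45 ± 0.18 did not pass the test (limma adjusted p = 0.123).

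Slc38a1, the related carrier known for supplying glutamine to neurons, was read by 3 probes that did not give the same answer. The brightest had 3.69, 3.66 and 3.59 in null heads, against 3.96, 4.18 and 3.60 in wild type heads, with null arrays 1 and 2 above wild type array 3. Its difference was -0.27 ± 0.17 (limma adjusted p = 0.311).

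The probe of middle brightness for Slc38a1 had 0.39, -0.03 and 0.06 in null heads, against 0.88, 0.89 and 0.97 in wild type heads, without overlap. Tested as a single probe it fell by 0.77 ± 0.16 on the log2 scale (limma adjusted p over all single probes of 0.0202, and 0.0393 with slide as a block). The dimmest probe overlapped between groups and differed by -0.14 ± 0.41. The authors' deposited value table holds the middle probe for this gene, and limma on that table called Slc38a1 lower (log2 difference -0.78, adjusted p = 0.0180), where 14.4% of that table's genes were called higher and 10.6% lower. The sources used here do not say which transcript each probe reads.

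Tested as single probes, 8 of the 15 transporter probes, that of Slc7a11 included, rose and 1 fell. Over all kept probes, 9.38% were called higher and 8.58% lower. For Slc6a9 and Slc7a5 both probes rose, for Slc1a5 neither passed, and Slc38a1 was the only one of the 4 genes with several probes whose probes differed in their call.

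The brightest probes of Slc38a1 and Slc38a2, whose genes are neighbours on chromosome 15, changed by amounts that differed by 0.19 log2 units (exact permutation p = 0.5). Slc38a4, the next gene on that chromosome in the RefSeq gene order, differed by 0.34 ± 0.36 (limma adjusted p = 0.538). For the Slc1 pair, Slc1a5 changed by 0.17 less than Slc1a4 (exact permutation p = 0.2). With Slc7a3 over Slc7a1 and the light chains over the heavy chain, these were 5 pairs in all, and none had an adjusted permutation p under 0.5.

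Within groups, the SD over 3 arrays of the 10 transporters ran from 0.05 to 0.35 log2 units in null heads and from 0.06 to 0.46 in wild type heads. The null arrays were the tighter group for 8 of the 10 genes, and over all genes too the arrays correlated at 0.992 to 0.993 among null heads and 0.977 to 0.986 among wild type heads. With slide as a block the same test called 6 transporters higher and 0 lower, where 12.9% of all genes were called higher and 11.8% lower (24.7% in either direction). After normexp correction 5 were higher and 0 lower, against 9.05% and 10.9% of all genes (20% in either direction). The median log2 difference of the 10 genes was then 0.65, against -0.09 over all genes. Array weights called 7 higher and 2 lower, Slc1a4 joining the rises and Slc38a1 and Slc38a2 the falls, but also called 29.5% of all genes higher and 32.7% lower (62.2% in either direction).

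**Figure D3:**
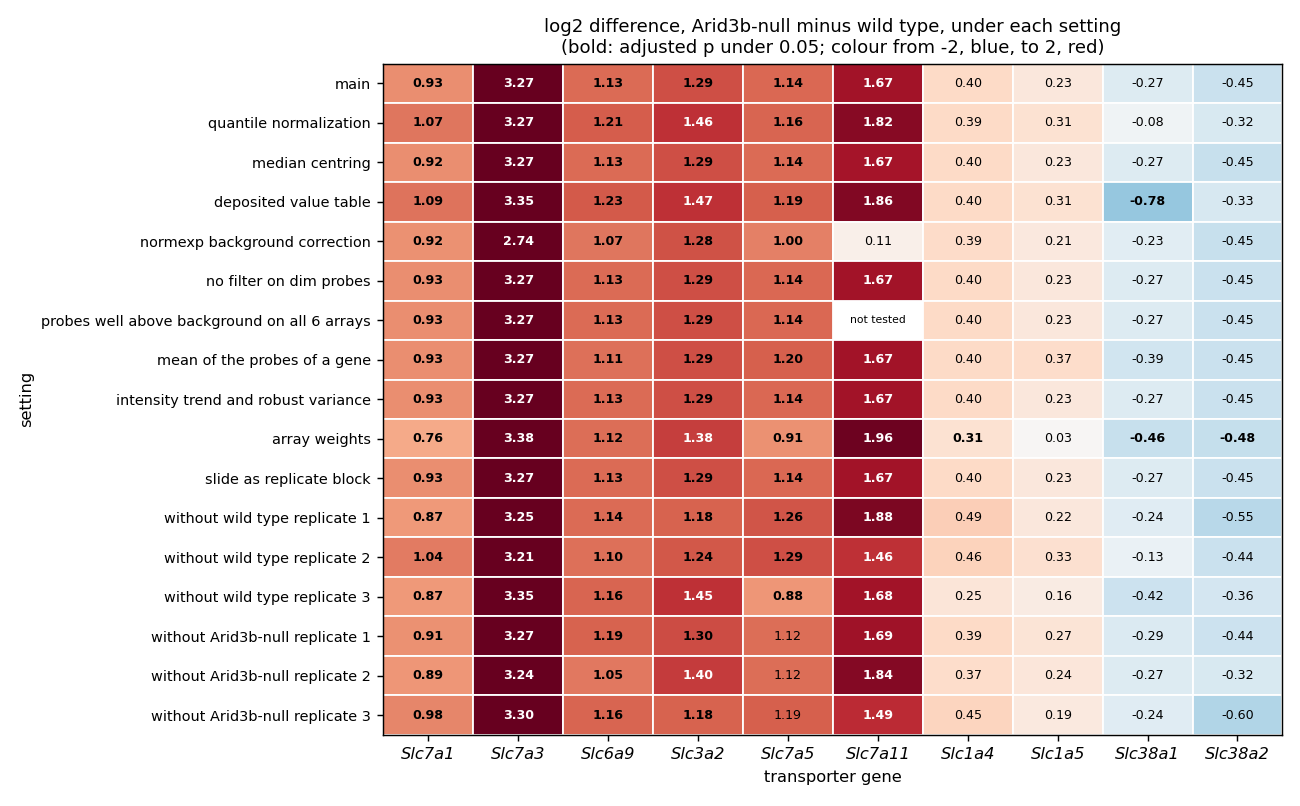
Log2 difference, Arid3b-null minus wild type, of each transporter (columns) under the main setting and each alternative (lines of the grid), in bold where the limma adjusted p was under 0.05. Slc7a1, Slc7a3, Slc6a9 and Slc3a2 were called higher under all settings shown, Slc7a5 lost its call without each null array, and Slc7a11 was 0.11 after normexp correction.

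Promoter windows from RefSeq (assembly GRCm38.p6, 250 bases before to 50 after a gene's start) matched 6 of the 10 genes, with 9 windows in all. Slc7a3, Slc7a5, Slc38a1 and Slc1a5 had no window. The windows were searched on both strands for the 9-letter amino acid response element TGATGNAAN, where N is any base, and for the core letters ACGTG and GCGTG of the element bound by hypoxia-inducible factors, letters which other factors bind too. The response element letters were in 3.95% of all 32851 windows, ACGTG in 19.6% and GCGTG in 32.4%. Counted by gene, the shares with such a window were 4.50%, 21.8% and 35.2% of 27025 genes. Positions below count from the gene's start. A match describes letters in a window and does not show that a factor binds there.

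Slc7a11 and Slc1a4 were the only members whose windows held the response element letters, Slc7a11 with 2 matches facing each other, at positions -66 and -48, and Slc1a4 with 1 from -5 to 4, across the start, on the opposite strand. The windows of Slc3a2, Slc6a9, Slc7a1 and Slc38a2 held none. The ACGTG core was found once, at -164 of Slc3a2 on the opposite strand, and GCGTG stood in at least 1 window of Slc1a4, Slc38a2, Slc6a9 and Slc7a1. The sequences are shown because the response element letters stand upstream of the start of Slc7a11, which rose, and across that of Slc1a4, which did not pass, and are missing from the window of Slc3a2, which rose. Slc7a11 is read on the minus strand at chr3:50443614-50443863, Slc3a2 on the minus strand at chr19:8713898-8714147, and Slc1a4 on the minus strand at chr11:20332710-20332739. Each is printed along the gene's own strand, with capitals marking the response element letters in Slc7a11 and Slc1a4 and the ACGTG core, read on the opposite strand as CACGT, in Slc3a2.
Slc7a11 promoter: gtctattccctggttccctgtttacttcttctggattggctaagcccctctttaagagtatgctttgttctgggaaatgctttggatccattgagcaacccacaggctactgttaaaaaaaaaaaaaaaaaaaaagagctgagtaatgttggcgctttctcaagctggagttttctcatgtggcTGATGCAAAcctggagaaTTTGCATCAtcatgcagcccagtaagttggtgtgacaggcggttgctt
Slc3a2 promoter: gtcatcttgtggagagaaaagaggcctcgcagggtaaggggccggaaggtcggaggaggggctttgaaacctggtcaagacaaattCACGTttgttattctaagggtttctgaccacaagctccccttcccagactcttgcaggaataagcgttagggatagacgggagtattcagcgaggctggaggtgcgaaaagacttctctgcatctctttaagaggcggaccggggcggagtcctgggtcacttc
Slc1a4 start: agcctccagcgtgcctcctgcGTTGCATCA

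The other amino acid carriers of the same families were read from a list of 36 genes. Of the 25 that passed the filter on dim signal, 7 rose (28%), none fell and 18 did not pass the test. Over all genes tested, 12.3% were called higher and 11.2% lower. The median log2 difference of the 25 genes was 0.34, and 0.05 after normexp, where the median over all genes was -0.09. Slc7a4, a relative of the cationic carriers, was 3.00-fold higher (log2 difference 1.58 ± 0.13). Slc6a15, a carrier of branched-chain amino acids and proline in neurons, was 3.64-fold higher (1.86 ± 0.16, and 0.74 after normexp). Slc1a6, a glutamate carrier known from Purkinje cells of the cerebellum, was 3.09-fold higher (1.63 ± 0.17).

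Slc7a7, another light chain that pairs with Slc3a2 and exports cationic amino acids, was 2.19-fold higher (log2 difference 1.13 ± 0.14). The other Slc7 genes tested in this list, Slc7a2, Slc7a6, Slc7a8 and Slc7a10, were not called (0.75, -0.27, 0.60 and 0.56). The 3 further genes that rose were the glutamine carrier Slc38a3 (1.46 ± 0.22), Slc38a11 (1.27 ± 0.20) and the glutamate and cysteine carrier Slc1a1 (0.70 ± 0.17). Slc38a11 was well above background on 3 of 3 null and 2 of 3 wild type arrays, so it passed the filter only through the null arrays. Slc38a11 and Slc1a1 were not called after normexp, with differences of 0.09 and -0.00, and Slc1a1 lost its call without several single arrays. With slide as a block Slc3a1, the heavy chain of kidney and gut, was also called, as lower (-0.64, limma adjusted p = 0.0433). Without a block it was not called (-0.64 ± 0.19, limma adjusted p = 0.0552). Slc3a1 was well above background on 2 of 3 null and 3 of 3 wild type arrays, so it passed the filter only through the wild type arrays. After normexp its difference was -0.25 and was not called (limma adjusted p = 0.326). The 11 genes of the list that were not tested included the glycine carrier Slc6a5 and the renal and intestinal carriers Slc7a9 and Slc6a19.

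Of 15 tested amino acid carriers outside these families, 1 rose (6.67%), 5 fell (33.3%) and 9 did not pass. Over all genes tested, 12.3% were called higher and 11.2% lower. The list median was -0.34, and 1 gene rose and 3 fell after normexp. The gene that rose was Slc43a2, a plasma membrane carrier of large neutral amino acids, which had 0.30, 0.26 and 0.27 in null heads, against -1.66, -1.53 and -1.28 in wild type heads, without overlap (3.41-fold, log2 difference 1.77 ± 0.14, limma adjusted p = 9.16e-04). Mitochondrial carriers made up 4 of the 5 that fell. They were Slc25a12, which exchanges aspartate for glutamate (-1.21 ± 0.13), Slc25a29, a carrier of basic amino acids (-1.40 ± 0.21), Slc25a38, which brings glycine to haem synthesis (-0.74 ± 0.12), and the ornithine carrier Slc25a15 (-0.70 ± 0.13).

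The last to fall was the lysosomal cationic carrier Slc66a1 (-0.47 ± 0.13), which was not called with slide as a block (adjusted p = 0.0648) or after normexp. Slc25a15 was not called after normexp either (adjusted p = 0.0583).

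**Figure D4:**
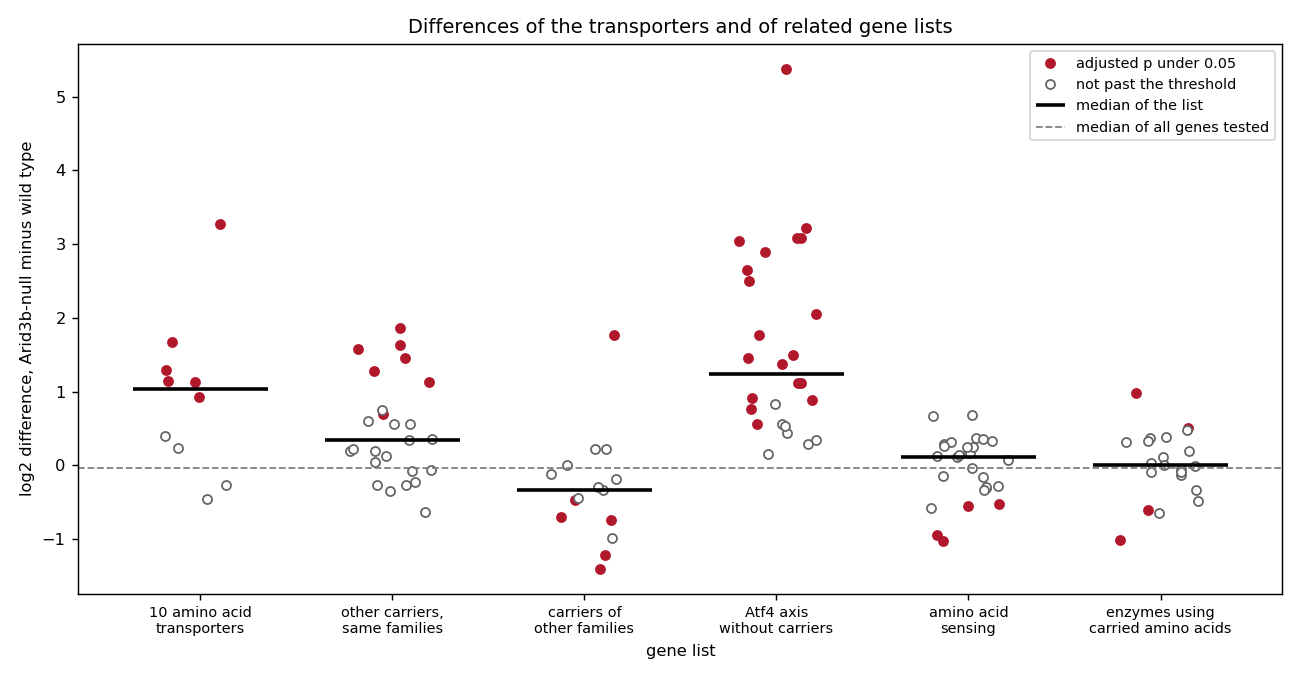
Log2 difference, Arid3b-null minus wild type, of every tested gene in the transporter list and in 5 related lists (points spread sideways only for visibility), filled where the limma adjusted p was under 0.05, with the list median as a thick bar and the median of all genes tested, -0.04, as a dashed line. The list medians were 1.03 for the 10 transporters, 0.34 for other carriers of the same families and -0.34 for carriers of other families. They were 1.24 for genes of the Atf4 axis, 0.12 for amino acid sensing and 0.01 for enzymes using the carried amino acids.

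Set against all transport genes, the 10 members stood among 290 tested genes whose symbol begins with Slc, of which 50 rose and 25 fell. The other 280 held 44 that rose (15.7%) and 25 that fell (8.93%), with a median of -0.03, near the shares over all genes. The largest rises among Slc genes in no list here were Slc2a3, a glucose carrier (log2 difference 2.77 ± 0.19), and Slc26a10 (1.96 ± 0.21), beside Slc16a14. Slc16a14 was not well above background on any wild type array and passed the filter only through the null arrays. Its signal has only a bound, at least 3.42-fold higher, and it was not called after normexp (0.27).

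Among the same Slc genes in no list here, the largest falls were the vesicular monoamine carrier Slc18a1 (-1.54 ± 0.18), Slc25a35 (-1.30 ± 0.20) and Slc35b1 (-1.29 ± 0.19). On null arrays, Slc18a1 and Slc25a35 were well above background once in 3, so both passed the filter only through the wild type arrays, and normexp called neither.

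Genes of the Atf4 axis that are not carriers were read beside the transporters. Of 26 tested, 19 rose (73.1%) and none fell, with a median of 1.24, where 12.3% of all genes were called higher and 11.2% lower. The smallest p values were those of Chac1, which breaks down glutathione (log2 difference 5.38 ± 0.15), Ddit4, an inhibitor of mTOR signalling (3.09 ± 0.15), Stc2, a secreted glycoprotein (3.08 ± 0.16), and Aldh1l2, a mitochondrial folate enzyme (2.65 ± 0.15, and 1.11 after normexp). The mRNA of Atf4 itself had 5.50, 5.64 and 5.25 in null heads, against 5.48, 5.13 and 4.91 in wild type heads, which overlapped (0.29 ± 0.19, limma adjusted p = 0.321). These genes and several transporters are known Atf4 targets, the list was chosen with earlier results of these data known, and its counts are no independent support.

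Of 28 genes of the eIF2 kinases and the mTOR pathway, through which cells respond to amino acid scarcity among other stresses, none rose and 4 fell (14.3%). Over all genes tested, 12.3% were called higher and 11.2% lower, and the list median was 0.12. Sesn2, Ddit4 and Eif4ebp1, also of the mTOR pathway, were counted in the Atf4 list and rose (log2 differences 2.05, 3.09 and 1.11). Array weights called 10 of the 28 genes higher and 10 lower, while calling 62.2% of all genes. Eif2ak2, the kinase activated by double-stranded RNA, fell by 0.94 ± 0.15 and Castor2, a partner of an arginine sensor of the mTOR pathway, by 1.03 ± 0.18 on the log2 scale. Eif2ak1, the kinase activated by haem shortage (-0.53 ± 0.13), and the Rag GTPase gene Rraga (-0.55 ± 0.15) also fell, with adjusted p of 0.0299 and 0.0414, and Eif2ak1 was not called with slide as a block (adjusted p = 0.0501). Calls of this list numbered 2 to 7 when single arrays were left out. Eif2ak4, the kinase of this family that responds to amino acid scarcity through uncharged tRNA, differed by 0.16 ± 0.14 (adjusted p = 0.437).

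Of 21 tested enzymes that use the carried amino acids, 2 rose and 2 fell, shares near those of all genes. Arg1, which splits arginine, was 1.97-fold higher (0.98 ± 0.15) and Srr, which makes D-serine, rose by 0.51 ± 0.12 and was not called after normexp. Alas1, which joins glycine to succinyl-CoA in haem synthesis, fell by 1.01 ± 0.17, and Gcsh, a subunit of the glycine cleavage system, by 0.61 ± 0.13 on the log2 scale.

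Markers of several cell types were called in the same heads, where 12.3% of all genes tested were called higher and 11.2% lower. The shares called were 37.5% lower for neuronal, 50% lower for neural progenitor, 40% higher for neural crest and 28.6% lower for arch mesenchyme markers. Of 8 neuronal markers 3 fell (Elavl3, Elavl4 and Dcx), and their summed linear signal was 5.33 to 6.45 times the 75th percentile in null heads and 8.24 to 11.1 in wild type heads. Of 6 neural progenitor markers 3 fell (Nes, Sox1 and Fabp7), with sums of 27.4 to 30.4 in null heads and 44.1 to 52.0 in wild type heads. Of 5 neural crest markers 2 rose (Tfap2a and Ets1), with sums of 8.26 to 9.41 in null heads and 5.65 to 6.46 in wild type heads.

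Of 7 arch mesenchyme markers 2 fell (Dlx2 and Prrx1, the last at -0.85, and -0.09 with adjusted p = 0.763 as the mean of its probes), with sums of 15.6 to 16.2 in null heads and 17.1 to 18.9 in wild type heads. Of 9 endothelial markers 1 rose (Sox17, a share of 11.1%, near the 12.3% of all genes), with overlapping sums. No marker of surface epithelium, heart or macrophages was called, and every tested marker of these lists was well above background on all 6 arrays. Wild type array 2 stood out, with a heart sum of 2.44 against 0.33 and 0.49 on wild type arrays 1 and 3. Its surface epithelium sum was 47.8, against 22.4 and 23.5 on those arrays and 34.5 to 36.6 in null heads. Myl7, Fcgr3 and Ptprc were not tested. In bulk RNA, fewer cells of a type and less RNA per cell cannot be told apart, and the part of cell makeup in the transporter results was not tested.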

How the data were processed

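Per the labels, total RNA of pooled embryo heads was amplified with Cy3 label for Agilent one-colour arrays. The scanner files deposited for each array come from Feature Extraction 10.7.3.1, per their headers, and hold 1 background-subtracted intensity per spot (the processed signal), median intensities of the spot and its background, and flags. The authors also deposited a table of log2 values (column medians 6.76 to 6.77, correlation with the log2 scanner signal of the same array 0.999 or more over 24158 matched rows); the sources used here do not say how it was scaled or centred, and its direction is that of signal.

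From these files, log2 processed signal minus the array's 75th percentile over non-control spots was computed, without outlier-flagged spots (84 to 156 per array). Of 39429 probes, 26424 were given 1 symbol, 0 several and 13005 none through RefSeq accessions (table of GRCm38, used for names and gene order). A probe was kept (26288 were) where every array of a group had it well above background and 5 or more arrays measured it, and the brightest stood for each of 14906 genes. The null minus wild type difference was fitted over all 6 arrays in limma 3.58.1 under R 4.3.3 (lmFit, eBayes, adjusted p under 0.05), with no covariate. A gene not well above background in 1 group has only a bound, from the lowest signal well above background or its own, whichever is higher. Normexp (offset 50) used median signals, since mean signals were not in the files used here.

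The members, lists and tests were chosen with earlier results of these data known. Named were all 10 transporters, Arid3b, up to 4 changed genes per list by smallest p, and the 3 largest rises and falls of other Slc genes; of marker lists the brightest 3 and those that changed, not all printed. Slc1a1, Slc3a1, Slc38a3, Slc38a11, Slc25a15, Slc66a1, Slc38a4, Slc7a2, Slc7a6, Slc7a8, Slc7a10, Atf4, Sesn2, Eif4ebp1, Eif2ak4, Slc6a5, Slc7a9 and Slc6a19 fall outside this rule and were picked with their values seen.

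Each slide held the arrays of 1 replicate number, per the file headers, so slide and replicate block are 1 model. Deviations of same-numbered arrays correlated at -0.20, 0.15 and 0.42 for numbers 1, 2 and 3 across genes. Those of differently numbered arrays, which share no slide, ran from -0.52 (null 2 with wild type 3) to 0.49 (null 2 with wild type 1). The limma steps were tested on simulated data, and the alternatives tried are given in the closing section.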

Additional observations from a re-analysis of the deposited data

How the results depend on the processing

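The 6 transporter calls, all higher, varied between 5 and 9 over the alternatives (5 after normexp, 5 at an adjusted p under 0.01, 5 on probes well above background on all 6 arrays, and 5 to 6 when single arrays were left out). Array weights called 9 of the 10, 7 higher and 2 lower, while calling 62.2% of all genes. No transporter difference changed sign under any alternative run. Slc1a4 (0.31) and Slc38a2 (-0.48) were called with array weights, and Slc38a1 with array weights (-0.46) and in the deposited value table (-0.78). With slide as replicate block no transporter gained or lost its call; among list genes, beside those named above, Atf5 lost its call and Aldh18a1, Emx2 and Isl1 gained one. The count of genes changed, 3506 of 14906, was 2270 without the filter on dim probes, 9274 with array weights and 1272 at an adjusted p under 0.01; without single arrays it ran from 1516 to 5199, at 2137 and 2174 without wild type replicates 1 and 2, 1516, 1868 and 1861 without null replicates 1, 2 and 3, and 5199 without wild type replicate 3. Without the filter, the median over all genes was -0.11. The 40 calls among the 115 tested genes of the 5 related lists became 77 with array weights and ran from 29 to 48 without single arrays; calls of the sensing genes and of the enzymes each ran from 2 to 7 without single arrays, and were 20 and 12 with array weights. The cause of these changes was not tested. Signal near background limits Slc7a11, Slc38a11, Slc1a1 and Slc3a1.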
